A study of Mus musculus with 36 samples.

Results

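The comparison at day 5 set SMCHD1 K518E against Halo-SMCHD1. The question was which X-linked genes carried a smaller share of transcript from the inactive X chromosome (Xi) in the K518E line. Further questions were where these genes lie and how quickly they are silenced in Halo-SMCHD1. The members of the comparison were the 2 K518E and 2 Halo-SMCHD1 libraries of day 5, chosen by their labels. They are 4 of the 36 libraries of the series. Chromatin-associated RNA sequencing (ChrRNA-seq, RNA retained on chromatin and therefore close to ongoing transcription) was read out per gene as the allelic ratio r = Xi/(Xi+Xa), in which Xa is the active X chromosome. A value of 0.5 means equal output from both alleles and 0 means complete silencing of Xi.

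All lines were female mouse embryonic stem cells (mESCs) from a 129S x Castaneus cross, in which a TetOn promoter replaces the promoter of Xist on the 129S allele, so that doxycycline (dox) always makes the 129S chromosome the Xi. The Halo-SMCHD1 line (clone G2) has a HaloTag on the endogenous SMCHD1 protein and carries a transgene for eGFP-CIZ1, an Xi marker, at Rosa26. K518E (clone A4) was made in that line by changing 1 lysine codon of both Smchd1 copies to glutamate, and the line G137E, used here for contrast, was made in the same way. Lines with the substitution E147A or Y353C in both Smchd1 copies, and a line with a knock-out of Lrif1, were also made in the Halo-SMCHD1 line. They are used here at day 7 only. Each line is 1 clone, so a difference between lines and a difference between clones cannot be told apart. By the authors' published replies to reviewers, the analysis of K518E was added during revision. Whether the K518E libraries were prepared or sequenced with the others is not stated. A difference between rounds of work could therefore not be told apart either. Cells for day 5 and day 7 were differentiated as a monolayer in 1 µg/ml dox, and further single libraries came from uninduced mESCs and from mESCs after 24 h of dox. The study describes the ChrRNA-seq replicates as independent repeats of a single clone, so p-values measure the spread between repeats of 1 clone.

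SMCHD1 is a non-canonical structural maintenance of chromosomes protein. By live-cell imaging, the study reports that it loads onto the Xi from the start of X inactivation and accumulates progressively. SMCHD1 maintains and completes the repression of many X-linked genes and the compaction of their chromatin. Its N-terminal GHKL domain binds and hydrolyses ATP. Substitutions in this domain occur in the facial malformation syndrome BAMS and in the muscular dystrophy FSHD2, and K518E is a BAMS substitution that raises ATPase activity of the isolated domain in vitro. In the GENCODE vM21 annotation of Smchd1 the codon lies in exon 12 of 48, on the minus strand of chromosome 17 at 71431315 to 71431317 (mm10), and the codon of G137E lies in exon 3 at 71463775 to 71463777. The spliced coding sequence around both unmutated codons (GENCODE vM21 transcript, minus strand) is shown with the codon that was changed in capitals, since these substitutions define the lines compared. The editing vectors could carry further designed changes, to PAM or restriction sites, which are not shown.

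K518E: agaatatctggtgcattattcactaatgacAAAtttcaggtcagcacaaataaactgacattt

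G137E: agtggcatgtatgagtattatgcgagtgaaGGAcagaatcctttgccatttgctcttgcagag

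At day 5, r of X-linked genes was lower in K518E than in Halo-SMCHD1. The median r over 242 genes was 0.0688 and 0.0606 in the Halo-SMCHD1 libraries and 0.0371 and 0.0432 in the K518E libraries, so that both K518E libraries were below both Halo-SMCHD1 libraries. The group means of these library medians were 0.0647 ± 0.0058 (SD, n = 2) and 0.0402 ± 0.0043 (SD, n = 2), and K518E thus retained 62.1% of the Halo-SMCHD1 level. The two-sided exact permutation test of the library medians gave p = 0.333 (n = 2 against 2), which is the smallest p that this design allows. Over genes, the mean r of K518E was lower for 197, higher for 41 and equal for 4, with a median difference of -0.0178 in r and of -0.46 in log2 odds. In each of the 4 possible pairs of 1 K518E with 1 Halo-SMCHD1 library, between 179 and 196 genes were lower in K518E and the median difference was between -0.0224 and -0.0134. A lower r in bulk RNA can come from fewer cells that still express the Xi allele, from less Xi RNA per cell or from more Xa RNA. These cannot be told apart, since the ratios come without expression levels.

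For 60.7% of the 242 genes both K518E libraries lay below both Halo-SMCHD1 libraries (here called lower without overlap), for 14 genes (5.79%) both lay above, and for the other 81 genes the libraries overlapped. The same count gave 30 lower (12.4%) and 28 higher (11.6%) genes for G137E against Halo-SMCHD1 at day 5. Against G137E, which was measured in different libraries from Halo-SMCHD1, K518E was lower without overlap for 56.6% of genes and higher for 11 (4.55%). The library medians of G137E at day 5 were 0.0565 and 0.0758, on either side of the Halo-SMCHD1 values. Single genes were tested with limma on the log2 odds of r (pseudocount 0.01), and after Benjamini-Hochberg adjustment 1 of 242 genes (0.413%) had a p under 0.05. That gene, Rab39b, was higher in K518E, and no gene that was lower passed the threshold. At an unadjusted p under 0.05, 29 genes were lower (12.0% of those tested) and 2 higher (0.826%), and the smallest adjusted p of a lower gene was 0.211. limma called no gene for G137E against Halo-SMCHD1, with 4 lower (1.65%) and 3 higher (1.24%) at an unadjusted p under 0.05, and Rab39b alone for K518E against G137E, with 35 lower (14.5%) and 3 higher (1.24%). The genes named next are those with the largest drop among those lower without overlap, given by their values.

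**Figure D1:**
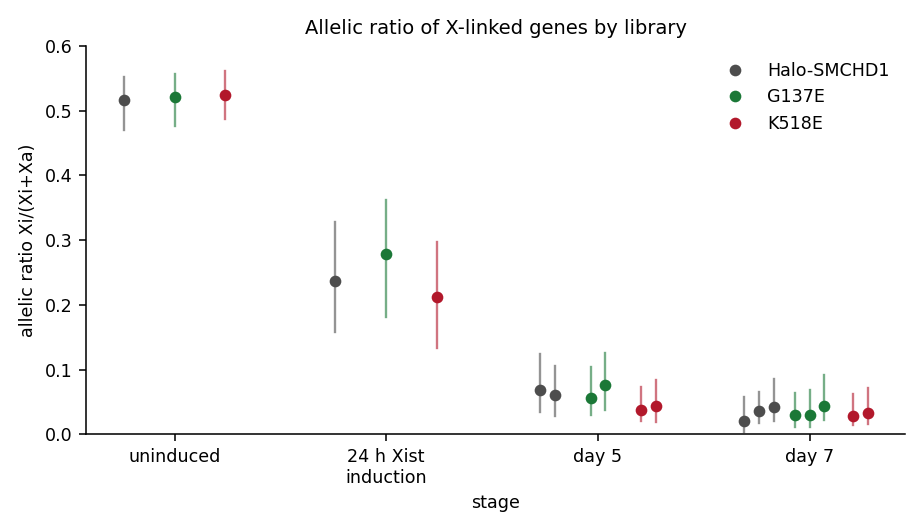
Allelic ratio Xi/(Xi+Xa) of the 242 genes in each library of Halo-SMCHD1 (grey), G137E (green) and K518E (red) at 4 stages. Points are library medians and bars run from the lower to the upper quartile over genes; at day 5 the K518E medians of 0.0371 and 0.0432 lie below the other 4 medians, and at day 7 the 3 lines overlap.

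**Figure D2:**
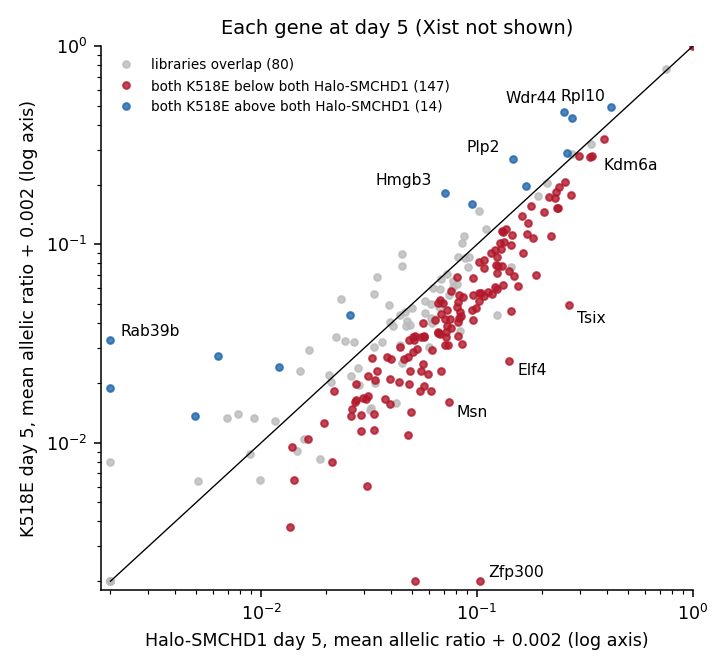
Mean r at day 5 of each of 241 genes (without Xist) in Halo-SMCHD1 (x axis) and K518E (y axis), with 0.002 added to each mean so that 0 can be drawn on the log axes; the line marks equality. Red points are the 60.7% of genes with both K518E libraries lower and blue points the 14 with both higher. Most points lie below the line. Among genes with high r, some lie above it (such as Wdr44, Rpl10 and Slc25a5) and others below it (such as Kdm6a and Utp14a).

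Xist, the RNA that triggers silencing and is made from the Xi itself, had r between 0.998 and 0.999 in all 4 day 5 libraries, and its log2 odds differed by -0.01 ± 0.17 (SE). Its antisense transcript Tsix had the largest drop of all genes, but 1 library decided it. Tsix r was 0.469 and 0.0589 in Halo-SMCHD1 and 0.0420 and 0.0526 in K518E, so only 1 Halo-SMCHD1 library stood far above the rest. The ratio of Tsix was just as uneven elsewhere, with 0.615 and 0.105 in G137E at day 5, and its limma adjusted p was 0.453. Tsix overlaps the whole of Xist on the opposite strand, and the counting was strand-specific.

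Genes for transcription factors and chromatin regulators were lower in K518E as a group. Of 22 measured genes in this list, all 22 had a lower mean r, 19 without overlap between the libraries (86.4%, against 60.7% of all genes). The median difference in r was -0.0312 against -0.0178 over all genes, and limma called none. The list also had a higher level in Halo-SMCHD1, with a median r of 0.0897 against 0.0652 over all genes. The median share of that level that K518E kept was 65.4%, near the 66.0% of all genes. Elf4, an ETS-family transcription factor, had r of 0.172 and 0.106 in Halo-SMCHD1 and 0.0230 and 0.0244 in K518E. For Elf4 the difference in log2 odds was -2.29 ± 1.16 (SE) and the limma adjusted p was 0.353. Bcorl1, a transcriptional corepressor and relative of Bcor, had 0.155 and 0.105 in Halo-SMCHD1 and 0.0531 and 0.0681 in K518E (-1.09 ± 0.34, limma adjusted p = 0.211). Bcor itself, a subunit of a variant Polycomb repressive complex, had 0.105 and 0.124 against 0.0463 and 0.0624. Tfe3, a regulator of lysosomal genes, had 0.168 and 0.108 in Halo-SMCHD1 and 0.0722 and 0.0705 in K518E. For all 4 genes the K518E libraries were at most 0.0722 and the Halo-SMCHD1 libraries at least 0.105. Med12, Stag2 and Hcfc1 were the 3 members of the list whose libraries overlapped.

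Genes that are known to escape X inactivation in mouse were measured for 5 members, of which Kdm6a, Utp14a, Ddx3x and Shroom4 were lower without overlap (80.0%, against 60.7% of all genes) and Eif2s3x was higher without overlap. Kdm6a, a histone H3K27 demethylase, had r of 0.338 and 0.336 in Halo-SMCHD1 and 0.269 and 0.283 in K518E, a narrow spread within each line (-0.41 ± 0.19 in log2 odds, limma adjusted p = 0.343). Utp14a, a ribosome biogenesis factor, had 0.347 and 0.318 against 0.243 and 0.303, and Ddx3x, an RNA helicase, 0.206 and 0.197 against 0.116 and 0.171. Eif2s3x, the gamma subunit of translation initiation factor eIF2, went the other way, with 0.261 and 0.257 in Halo-SMCHD1 and 0.274 and 0.300 in K518E. Shroom4, an actin-binding protein, had much lower ratios than the others, with 0.0707 and 0.0665 against 0.0344 and 0.0459. As a share of the Halo-SMCHD1 level, K518E kept 81.8% of Kdm6a, 82.2% of Utp14a, 71.0% of Ddx3x and 58.5% of Shroom4, while the median over all genes was 66.0%.

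Of 21 measured genes of RNA processing and translation, 16 were lower and 5 higher in mean r, beside 197 lower of all 242 genes. Without overlap 11 were lower (52.4%, against 60.7% of all genes) and 3 higher, and the median difference was -0.0313. Ftsj1, a tRNA methyltransferase, had 0.163 and 0.198 in Halo-SMCHD1 and 0.102 and 0.110 in K518E, and Pqbp1, a splicing factor, had 0.207 and 0.0769 against 0.0870 and 0.0630, which overlap. The largest difference in this list was that of Rpl10, a protein of the large ribosomal subunit, which was higher in K518E. In mitochondria and metabolism, 12 of 15 genes were lower and 3 higher, 8 lower (53.3%, against 60.7% of all genes) and 1 higher without overlap, so both counts were near those of all genes. Timm17b, a subunit of the inner membrane protein translocase, had 0.188 and 0.118 in Halo-SMCHD1 and 0.0545 and 0.0641 in K518E, and Idh3g, a subunit of the isocitrate dehydrogenase of the citric acid cycle, 0.246 and 0.222 against 0.144 and 0.156.

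Membrane traffic, cytoskeleton and mitosis genes were lower for 14 of 15, with 10 lower (66.7%, against 60.7% of all genes) and 0 higher without overlap. limma called none, and 3 were lower at an unadjusted p under 0.05, beside 12.0% of all genes. Msn encodes moesin, a linker of actin to the plasma membrane, and had r of 0.0881 and 0.0554 in Halo-SMCHD1 and 0.0139 and 0.0143 in K518E, so that both K518E libraries were near complete silencing (-1.82 ± 0.53 in log2 odds, limma adjusted p = 0.211). Kinases, phosphatases and GTPases were lower for 12 of 16 (8 lower, or 50.0%, and 1 higher without overlap), and the ubiquitin pathway for 6 of 8 (5 lower, or 62.5%, and 0 higher without overlap), against 60.7% of all genes lower without overlap. The median difference in r was -0.0137 in the former list and -0.0179 in the latter, near that of all genes. Of the X-inactivation centre, 3 genes were measured and Tsix alone showed no overlap.

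Outside these lists, the genes with the largest drops without overlap were Wdr13, Tbc1d25, Zfp300, Mamld1 and Fundc1. Wdr13, a WD-repeat protein, had r of 0.260 and 0.111 in Halo-SMCHD1 and 0.0880 and 0.0480 in K518E (-1.46 ± 0.61 in log2 odds, limma adjusted p = 0.343). Tbc1d25, a Rab GTPase-activating protein that acts in autophagy, had 0.236 and 0.199 against 0.0769 and 0.139 (-1.18 ± 0.38, limma adjusted p = 0.211). In G137E, Wdr13 had 0.159 and 0.192 and Tbc1d25 had 0.135 and 0.184. Zfp300, a zinc-finger protein, was listed at 0 in both K518E libraries and at 0.0870 and 0.115 in Halo-SMCHD1, and it was also listed at 0 in 1 of 2 G137E libraries of day 5. Mamld1, a mastermind-like transcriptional coactivator, had 0.174 and 0.110 against 0.0558 and 0.0323, although its ratio in uninduced cells was already low, at 0.270 in Halo-SMCHD1. Fundc1, a receptor for mitophagy, stayed comparatively high in both lines, with 0.277 and 0.261 in Halo-SMCHD1 and 0.202 and 0.148 in K518E. Mospd1, Tmem47, Nudt11 and Zfp449 completed this set with differences in mean r between -0.0604 and -0.079. Il1rapl1, a synaptic adhesion protein, differed by -0.0815, but its ratio before induction was 0.974 in both lines, so its values say less about silencing than those of genes that start near 0.5.

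**Figure D3:**
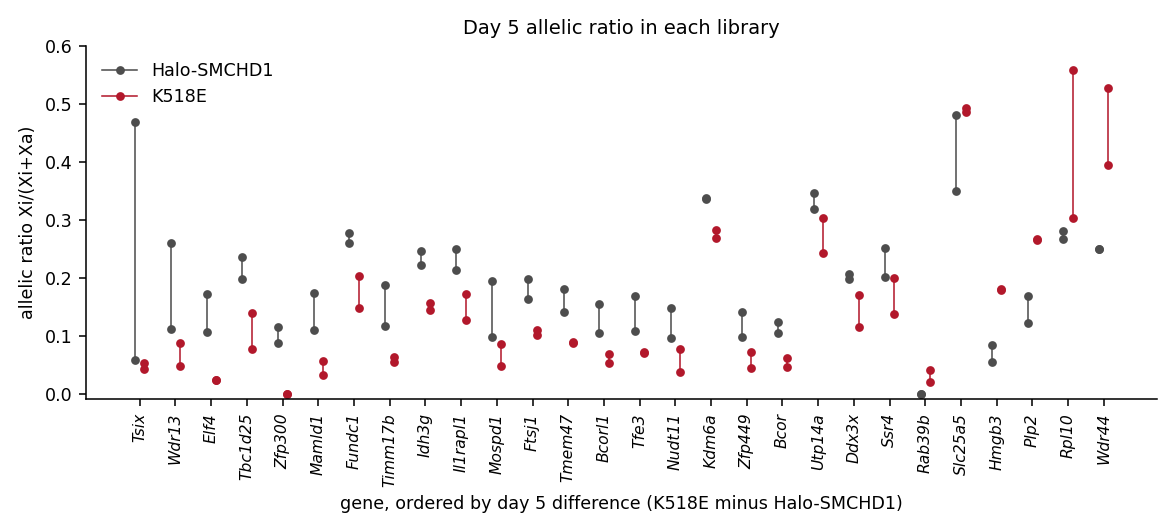
Allelic ratio at day 5 in each library of Halo-SMCHD1 (grey) and K518E (red) for 28 genes, those with the largest drops, the 5 with the largest rises, and Rab39b, ordered by difference in mean r; lines join the 2 libraries of a line. Tsix spans 0.0589 to 0.469 in Halo-SMCHD1 alone, and most other genes on the left show separate pairs with K518E lower.

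Idh3g and Ssr4, which encodes a subunit of the translocon-associated complex, are transcribed away from each other from chromosome X, 73778962 to 73786897 and 73787027 to 73790828 (mm10). Their gene bodies lie 129 bp apart, and their RefSeq promoter windows (250 bases before to 50 after the start) share 225 bases. Ssr4 had r of 0.251 and 0.202 in Halo-SMCHD1 and 0.138 and 0.199 in K518E, so both genes of this shared start region were lower in K518E without overlap, Ssr4 by a narrow margin in 1 library. The Idh3g window (RefSeq, GRCm38.p6, minus strand, chrX:73786848-73787147) is shown with its CpG dinucleotides (the letters CG, which read the same on both strands) in capitals. It holds 27 of them, and 94.6% of all 32851 RefSeq promoters of this length hold at least 1.

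Idh3g: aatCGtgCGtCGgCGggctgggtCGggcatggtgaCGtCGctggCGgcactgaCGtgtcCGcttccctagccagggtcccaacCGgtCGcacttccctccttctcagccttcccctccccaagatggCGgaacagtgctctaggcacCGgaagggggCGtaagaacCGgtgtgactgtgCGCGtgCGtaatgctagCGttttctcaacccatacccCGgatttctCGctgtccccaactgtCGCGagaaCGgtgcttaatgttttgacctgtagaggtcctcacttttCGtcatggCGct

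Rab39b, a small GTPase of vesicle traffic that lies at 75572044 to 75578231 of chromosome X (mm10, minus strand), was the only gene that limma called. It was listed at 0 in both Halo-SMCHD1 libraries of day 5 and had r of 0.0408 and 0.0208 in K518E (2.03 ± 0.23 in log2 odds with the pseudocount of 0.01, limma adjusted p = 0.00151). Rab39b was also listed at 0 in the 2 G137E libraries of day 5 and in all 8 libraries of day 7, so its spread across the other groups was 0. The call did not hold on untransformed ratios (limma adjusted p = 0.0587), with the 4 compared libraries alone (0.136) or with the day 5 libraries of the 3 lines alone (0.144). Its promoter window (RefSeq, GRCm38.p6, minus strand, chrX:75578182-75578481), shown with CpG in capitals for comparison with that of Idh3g, holds 10 CpG.

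Rab39b: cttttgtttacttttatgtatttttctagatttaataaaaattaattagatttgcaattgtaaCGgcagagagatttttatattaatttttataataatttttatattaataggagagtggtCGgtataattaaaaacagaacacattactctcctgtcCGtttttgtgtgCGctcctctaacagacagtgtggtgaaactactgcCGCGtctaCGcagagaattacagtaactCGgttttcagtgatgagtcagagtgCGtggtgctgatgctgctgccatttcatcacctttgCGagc

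The 5 genes with the largest rise without overlap were Wdr44, Rpl10, Plp2, Hmgb3 and Slc25a5. Wdr44, a Rab effector of endosomal recycling, had r of 0.25 in both Halo-SMCHD1 libraries and 0.527 and 0.394 in K518E (1.32 ± 0.54 in log2 odds, limma adjusted p = 0.343). Rpl10 had 0.267 and 0.281 against 0.559 and 0.303, so that 1 K518E library carried most of its rise. Plp2, a small membrane proteolipid, had 0.168 and 0.121 against 0.266 and 0.267, and Hmgb3, a high-mobility-group chromatin protein, 0.0547 and 0.0833 against 0.180 and 0.179. Plp2 and Hmgb3 were nearly equal in the K518E libraries, and they were also higher in K518E at day 7, at a mean of 0.264 against 0.0983 for Plp2 and of 0.177 against 0.0442 for Hmgb3. Plp2 was already higher before induction, at 0.613 in K518E and 0.477 in Halo-SMCHD1. Slc25a5, a mitochondrial ADP/ATP carrier, had 0.350 and 0.481 against 0.492 and 0.487, which is barely separate. Rpl10, Hmgb3 and Slc25a5 belong to genes with closely similar copies elsewhere in the genome. Reads were aligned uniquely, and the part of such copies in these ratios was not tested.

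How fast a gene is silenced was measured in libraries that the day 5 comparison did not use, as the share of its uninduced r that remained after 24 h of dox in Halo-SMCHD1. The 237 genes with r from 0.1 to 0.9 before induction were split by it into 3 classes of 79 genes. The fast class kept up to 35.7%, the intermediate class 35.9% to 56.5% and the slow class 57.1% or more of the uninduced r, with single libraries at each of these stages. Slow genes were still the highest at day 5, with library medians of 0.128 and 0.108 in Halo-SMCHD1 and 0.0816 and 0.0769 in K518E. The intermediate class had 0.0604 and 0.0550 against 0.0345 and 0.0393, and the fast class 0.0342 and 0.0323 against 0.0191 and 0.0204. In every class both K518E medians were thus below both Halo-SMCHD1 medians.

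In absolute terms the slowest genes dropped most, since the median difference in r was -0.0124 in the fast, -0.0175 in the intermediate and -0.0302 in the slow class. As a share of the level the order was the opposite, since the median share of the Halo-SMCHD1 r that K518E kept was 58.7% in the fast, 65.4% in the intermediate and 74.4% in the slow class. In log2 odds, where the pseudocount of 0.01 compresses differences at low r, the medians were -0.46, -0.48 and -0.42. K518E was lower without overlap for 45, 48 and 52 of 79 genes in the fast, intermediate and slow class. These shares were 56.96%, 60.76% and 65.82%, beside 60.7% of all genes. Higher without overlap were 5, 2 and 7 genes (6.33%, 2.53% and 8.86%), beside 5.79% of all genes. Across the 237 genes, Spearman's rho of the share left at 24 h with the day 5 difference was -0.24 in r and 0.01 in log2 odds (a description across genes that share libraries). Genes with the largest absolute difference were Tsix, Elf4 and Hmgb3 in the fast class and Zfp300, Tmem47 and Zfp449 in the intermediate class. In the slow class the 3 largest differences were the rises of Wdr44, Rpl10 and Plp2. Gene length moved with speed, with a median of 53.4 kb in the fast and 17.8 kb in the slow class, and its part in these values was not tested.

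**Figure D4:**
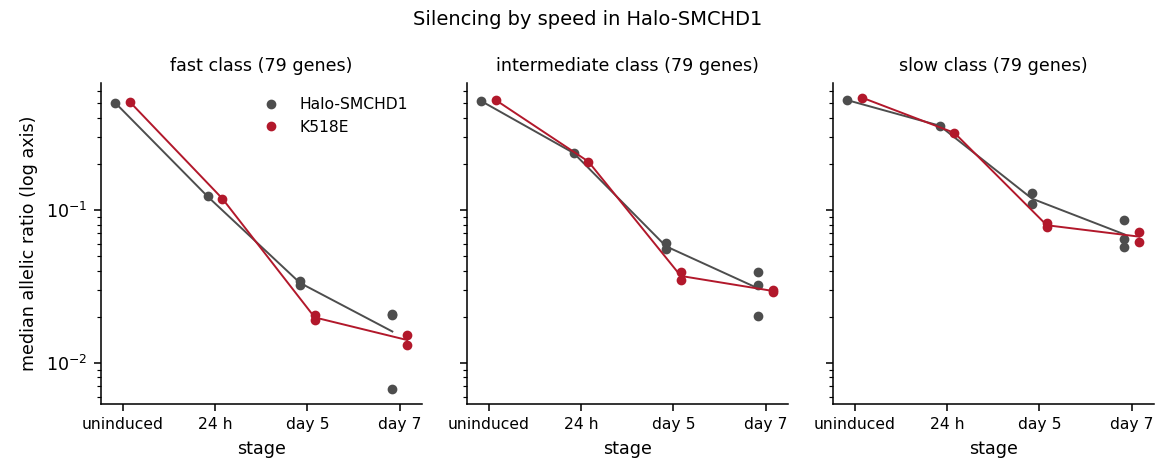
Library medians of r (log axis) by stage for the fast, intermediate and slow class of 79 genes each, in Halo-SMCHD1 (grey) and K518E (red); points are libraries and lines join the group means. In each class K518E lies lower at day 5, for example 0.0191 and 0.0204 against 0.0342 and 0.0323 in the fast class, and the lines meet again by day 7.

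K518E at day 5 lay between the levels of Halo-SMCHD1 at day 5 and day 7. The median over genes of the mean r was 0.0652 at day 5 and 0.0324 at day 7 in Halo-SMCHD1, and it was 0.0403 in K518E at day 5 and 0.0304 at day 7. The drop of K518E at day 5 amounted to 77.2%, 69.9% and 81.4% of the Halo-SMCHD1 change from day 5 to day 7 in the fast, intermediate and slow class. The K518E mean at day 5 was above the Halo-SMCHD1 mean of day 7 for 159 genes and below it for 81. At day 7 itself the library medians were 0.0200 to 0.0415 in Halo-SMCHD1 and 0.0284 and 0.0325 in K518E (difference of group means -0.00228, two-sided exact permutation p = 0.800, n = 2 against 3). Without overlap, 25 genes (10.3%) were lower and 18 (7.44%) higher in K518E at day 7, and limma called 0 of 242, with 4 genes lower (1.65%) and 8 higher (3.31%) at an unadjusted p under 0.05. The test of the day 5 difference against the day 7 difference called Rab39b alone (0.413%), with 14 genes (5.79%) more negative and 3 (1.24%) more positive at day 5 at an unadjusted p under 0.05. The Rab39b call of this test was lost with a pseudocount of 0.05, on untransformed ratios, with replicate number as a block, with robust variances, and when either Halo-SMCHD1 library of day 5, the third of day 7 or either K518E library of day 7 was left out.

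Of the genes lower without overlap at day 5, 88 (59.9%) were also lower in mean r at day 7, beside 41 of the 81 overlapping genes (50.6%) and 130 of all 242, and of the 14 higher genes 13 were again not lower. After 24 h of dox, where each line has 1 library, 172 genes were lower and 68 higher in K518E, with a median difference of -0.0194. Among the genes lower without overlap at day 5, 114 (77.6%) were lower at 24 h, compared with 51 of the 81 genes (63.0%) whose day 5 libraries overlapped. The sizes of the differences at 24 h and day 5 were nearly unrelated, with Spearman's rho of 0.06 in r over 242 genes. Before induction the medians were 0.516 in Halo-SMCHD1 and 0.524 in K518E, with 1 library per line.

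Position was examined in windows of 20 Mb along the X chromosome; Xist lies in the last of them. The median difference was below 0 in each of the 6 windows. It was -0.0295 for the 50 genes from 0 to 20 Mb, -0.0232 for 30 genes from 20 to 40 Mb, -0.0124 for 43 genes from 40 to 60 Mb, -0.0172 for 62 genes from 60 to 80 Mb, -0.0126 for 32 genes from 80 to 100 Mb and -0.0157 for 25 genes beyond. The window farthest from Xist also held slower genes, which kept a median of 60.8% of the uninduced r at 24 h, and its Halo-SMCHD1 level at day 5 was 0.0849, the highest of the windows. In log2 odds the window medians were between -0.59 and -0.36, and the lowest was again that from 0 to 20 Mb. The share of genes lower without overlap was 68.0% in this window and 68.8% from 80 to 100 Mb, with the smallest share, 53.2%, from 60 to 80 Mb, beside 60.7% of all genes. Across genes, Spearman's rho of distance from Xist with the difference was -0.18 in r and -0.10 in log2 odds (n = 242).

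The gene-dense stretch around 8 Mb held 5 of the genes with the largest drops, namely Tfe3, Timm17b, Wdr13, Tbc1d25 and Ftsj1, and it was singled out after its values were seen. Between 7 and 8 Mb, which holds Tfe3 and Timm17b but not the other 3, 18 of 19 genes were lower with a median difference of -0.0332. Lower without overlap were 12 of these (63.2%), near the 60.7% of all genes. The exception in this window was Plp2, which at 7668115 to 7671278 was higher in K518E. The window from 48 to 49 Mb held Utp14a, Bcorl1 and Elf4, with 7 of 8 genes lower and 5 (62.5%) lower without overlap, again near the share of all genes.

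**Figure D5:**
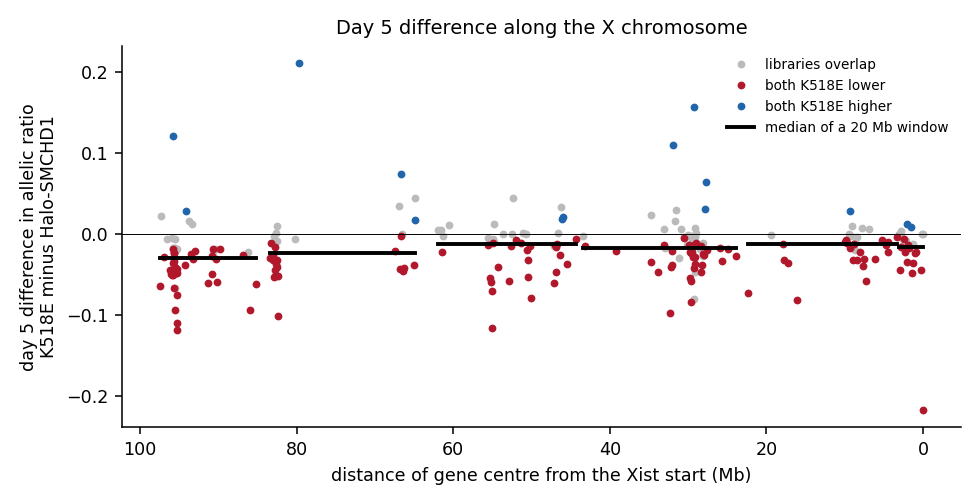
Difference in mean r at day 5 (K518E minus Halo-SMCHD1) of each gene against the distance of its centre from the start of Xist in Mb; red and blue mark genes lower and higher without overlap, grey the others. Black bars are the medians of 20 Mb windows, which lie between -0.0295 and -0.0124, all below 0.

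CpG content of the promoter, known for 195 genes from RefSeq windows, did not order the absolute differences. The share of the level that remained rose with CpG content, as did the Halo-SMCHD1 level itself. The median difference in r was -0.0186, -0.0196 and -0.0183 for low, middle and high observed/expected CpG (65 genes each), and 41, 38 and 39 genes were lower without overlap, between 58.5% and 63.1%, against 60.7% of all genes. The median share of the Halo-SMCHD1 r that K518E kept was 60.8%, 69.6% and 73.6%. The median Halo-SMCHD1 r at day 5 was 0.0469, 0.0705 and 0.0899 in these classes. The share left at 24 h was 37.1%, 55.2% and 51.3%. The part of level and speed in the share kept was not tested. In log2 odds the median differences were -0.56, -0.37 and -0.42, with Spearman's rho of 0.07 over the 195 genes. By gene length, 43 of 81 short genes (up to 15.2 kb), 47 of 80 of middle length and 57 of 81 long genes (52.1 kb or more) were lower without overlap (53.1%, 58.8% and 70.4%, against 60.7% of all genes), while the median difference was -0.0196, -0.0172 and -0.0171. No measure of depth accompanies the ratios, so whether longer genes with more SNP reads separate the libraries better was not tested.

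Lines in which SMCHD1 function is impaired were compared at day 7 in another table that shares 239 of the genes. In E147A, which cannot hydrolyse ATP, r was above Halo-SMCHD1 for 135 of the 146 genes that were lower in K518E at day 5, with a median difference of 0.0419, and for 68 of 80 genes whose day 5 libraries overlapped, with a median of 0.0287. In Y353C, an FSHD2 substitution, r was higher for 121 of 146 (median 0.0175) and 63 of 80 (median 0.0207), and in LRIF1 knock-out cells, which lack a partner protein of SMCHD1, for 106 of 146 (median 0.00897) and 51 of 80 (median 0.00666). Of the 13 genes measured there that were higher in K518E without overlap, r was higher for 9 in E147A (median 0.0229), 12 in Y353C (median 0.0252) and 6 in LRIF1 knock-out cells (median -0.000112). Spearman's rho of the K518E difference at day 5 with the E147A difference at day 7 was -0.32 in r and -0.20 in log2 odds over 239 genes, that with Y353C was -0.09 and -0.01, and that with LRIF1 knock-out was -0.14 and -0.02. The second E147A column of day 7 carries a replicate number that no label has and was assigned by line and day alone. These contrasts use day 7 libraries of Halo-SMCHD1 and share none with the day 5 comparison, and the values are a description across genes.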

How the data were processed

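ChrRNA-seq libraries of the mESC lines were analysed from 2 deposited tables of X-linked genes. The authors removed rRNA reads with bowtie2, aligned the rest uniquely to N-masked mm10 with STAR, assigned reads to 129S or Castaneus with SNPsplit, and counted them strand-specifically over transcripts using featureCounts. Per gene, the authors deposited r as a fraction, Xi reads over reads of both alleles, for genes covered by a minimum of 10 allele-informative reads. No read counts come with the fractions, so the depth behind each r is unknown and no counting interval is given. The table with K518E holds 242 genes in 20 libraries and the other 249 genes in 30 libraries, of which 2 columns could not be matched to a label and were not used. No 2 libraries of the K518E table had identical values.

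Gene tests used limma 3.58.1 in R 4.3.3 (lmFit and eBayes) on log2((r + 0.01)/(1 - r + 0.01)). They covered the 14 libraries of day 5 and day 7 of the 3 lines in the K518E table. Benjamini-Hochberg adjustment was over 242 genes, with a threshold of 0.05. The tests were also run on simulated log odds with normal noise, which had no lower limit and was equal in all groups of a gene. Genes without spread in some groups, such as Rab39b, were therefore not covered by the simulation. The paired test across genes named in the study's methods was not used, because genes are not replicates. For library medians, exact permutation tests (two-sided) were run. Libraries do not overlap where the highest of one line is below the lowest of the other. Python 3.11.15, numpy 2.4.6, pandas 2.3.3 and scipy 1.17.1 served for the rest, and promoters and Smchd1 exons came from RefSeq (GRCm38.p6) and GENCODE vM21.

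Named were Xist, genes called by limma, the largest drops without overlap up to 24 genes in all, the 5 largest rises without overlap, and up to 3 genes with the largest difference per gene list, speed class and window. Other names (the overlapping or opposite members of short lists, Shroom4, Spin4, Clcn5 and 2010204K13Rik) were chosen after their values were seen. The members and lists were chosen with earlier results of these data known. Alternatives tried were other pseudocounts, untransformed fractions, a replicate block, robust variances, other sets of libraries or genes, and leaving out each library. The SMCHD1-dependency categories of the study were not used here.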

Additional observations from a re-analysis of the deposited data

Results flagged for a closer look

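Rab39b was the 1 gene whose day 5 difference differed from another contrast in a test of that difference. K518E minus Halo-SMCHD1 was higher by 2.03 ± 0.32 (SE) in log2 odds at day 5 than at day 7 (limma adjusted p = 0.0197), and K518E minus G137E at day 5 was 2.03 ± 0.23 (limma adjusted p = 0.00151). The first call was lost (0 genes) with a pseudocount of 0.05, on untransformed ratios, with the replicate block, with robust variances and when either Halo-SMCHD1 library of day 5, the third of day 7 or either K518E library of day 7 was left out, and the second on untransformed ratios. Both values rest on 2 libraries with r of 0.0408 and 0.0208 beside libraries that are listed at 0. Fitted values against groups at 0 depend on the pseudocount and bound nothing.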

How the results depend on the processing

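The depth behind each r is unknown, which limits statements on single genes, those near 0 most. At day 5, limma called 2 genes with the 4 compared libraries alone (2010204K13Rik and Zfp300, both lower), 0 with the day 5 libraries alone, 1 (Clcn5, lower) on untransformed fractions, and 1 to 2 when a library was left out, with Spin4 added without the second K518E library. With the 4 compared libraries alone Zfp300 had -3.62 in log2 odds and a limma adjusted p of 0.0408. The day 5 minus day 7 test called 0 genes with a pseudocount of 0.05, on untransformed fractions, with the replicate block or with robust variances, and 0 to 2 with a library left out, 0 without either Halo-SMCHD1 library of day 5, the third of day 7 or either K518E library of day 7. K518E against G137E called 0 on untransformed fractions and 1 to 2 with a library left out. Replicate numbers did not pair the samples (correlation of deviations 0.08 between Halo-SMCHD1 and K518E); the replicate block called 1 gene at day 5, Rab39b, as without it. G137E and K518E numbers deviated in opposite directions (-0.19), and a block with crossed numbers, added after the data were seen, also called 1. The median day 5 difference in r ranged from -0.0235 to -0.0149 when a library was left out. The count lower without overlap then ranged from 160 to 177, but leaving out a library can only keep or raise this count. It was 148 after dividing r by 2 times the uninduced value. These alternatives were added after the data were seen. Library medians kept their direction in all 7 alternatives. Those that left out a library could not have reversed it, because the day 5 medians of these lines do not overlap. The slow minus fast difference was -0.0178 in r, and 0.0469 in log2 odds, where the order reversed. In r it was -0.0135 with classes from Halo-SMCHD1 at day 7 and -0.0281 with classes from G137E at day 5. In log2 odds the slow and fast medians were -0.377 and -0.511 with the Halo-SMCHD1 day 7 classes, again reversed. With the G137E classes they were -0.379 and -0.356, so the order did not reverse there. Xist ranged from -0.0589 to 0.0415 in log2 odds with a library left out and was above 0 without the first Halo-SMCHD1 (0.0415) or the second K518E (0.0167) library of day 5. Classes from iXist-ChrX were not run, as its columns were not matched. The causes were not tested.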
